A study of Mus musculus with 12 samples.

Results

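Sprouty, Spred and dual-specificity phosphatase (Dusp) genes encode brakes on mitogen-activated protein (MAP) kinase signalling. The genes described are 8 of the 23303 gene features in the tables, named by symbol: Spry1, Spry2, Spred1, Spred2, Dusp4, Dusp5, Dusp6 and Dusp10. These genes and the gene lists below were chosen with earlier results of these data known. Their counts beside those of all features are therefore descriptions. The 8 genes were followed in 12 RNA sequencing libraries, 3 in each of 4 groups, made from CD4 T cells sorted from spleens of C57BL/6 mice. T follicular helper (TFH) cells were sorted as CXCR5+ PD-1+ and the comparison cells, called non-TFH cells, as CXCR5- PD-1-. All mice carried Ets1 flox/flox alleles. WT groups had no Cre, and groups labelled KO also carried CD4-cre, which is expressed from the CD4 promoter and so acts in T cell development in CD4 and CD8 T cells alike. Age, sex and treatment of the mice are not given in the labels. Whether the replicates are different mice is not stated, so the p-values describe scatter among libraries that could be technical only.

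When a T cell receptor or growth factor receptor fires, the GTPase Ras activates the kinase chain Raf, MEK and ERK. ERK in turn induces genes that switch the chain off again. Sprouty proteins interfere between receptor and Raf, and Spred proteins bring the Ras inactivator neurofibromin to the membrane. Dusp enzymes remove the activating phosphates from the kinases themselves. Dusp6 acts on ERK in the cytoplasm, Dusp5 on ERK in the nucleus and Dusp4 on nuclear MAP kinases, whereas Dusp10 prefers the stress kinases p38 and JNK, so that the 8 genes are not brakes on ERK alone. In T cells such transcripts are known as readouts of recent signalling and as regulators of its threshold.

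The genes lie on 8 different chromosomes of the mouse genome (mm10). Spry1 spans chr3:37639947-37644598, Spry2 chr14:105891947-105896819, Spred1 chr2:117121374-117182279 and Spred2 chr11:19924375-20024026. Dusp4 spans chr8:34807297-34819894, Dusp5 chr19:53529109-53542431, Dusp6 chr10:99263231-99267489 and Dusp10 chr1:184013302-184075636. All are on the plus strand except Spry2. Each of the 8 had an entry of its own, shared with no overlapping gene, in all 12 libraries.

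Promoter windows are shown for the members in which the searched motifs occurred, since ETS proteins such as Ets1 and the immediate early factors downstream of ERK bind short known motifs. Windows of 300 bases (250 before to 50 after the start site) from RefSeq on GRCm38.p6, the assembly behind mm10, were matched for 7 of the 8 members. Searches on both strands covered an ETS core (CGGAAG), a cyclic AMP response element core (TGACGT), an AP-1 site (TGANTCA) and the CArG box, the site of serum response factor. Capitals mark every match. The windows lie at chr19:53528895-53529194, chr10:99262981-99263280, chr2:117120821-117121120 and chr11:19924192-19924491, in the order printed, all on the plus strand.
Dusp5: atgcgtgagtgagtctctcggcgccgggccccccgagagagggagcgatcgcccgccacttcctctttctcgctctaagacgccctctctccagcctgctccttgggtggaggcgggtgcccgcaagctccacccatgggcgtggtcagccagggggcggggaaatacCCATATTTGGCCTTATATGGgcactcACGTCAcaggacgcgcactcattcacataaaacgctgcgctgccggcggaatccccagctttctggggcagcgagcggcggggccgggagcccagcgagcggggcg
Dusp6: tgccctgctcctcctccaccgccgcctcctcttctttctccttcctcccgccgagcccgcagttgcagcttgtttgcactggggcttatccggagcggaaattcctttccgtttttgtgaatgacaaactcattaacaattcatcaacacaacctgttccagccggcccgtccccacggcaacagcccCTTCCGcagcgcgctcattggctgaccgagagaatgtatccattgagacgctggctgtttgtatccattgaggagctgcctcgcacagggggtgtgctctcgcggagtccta
Spred1: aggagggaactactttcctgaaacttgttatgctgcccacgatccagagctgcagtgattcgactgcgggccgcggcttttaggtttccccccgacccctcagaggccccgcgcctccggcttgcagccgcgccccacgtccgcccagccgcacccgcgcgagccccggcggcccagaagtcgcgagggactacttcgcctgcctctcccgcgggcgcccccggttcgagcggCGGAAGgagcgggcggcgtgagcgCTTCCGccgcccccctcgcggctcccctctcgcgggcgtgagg
Spred2: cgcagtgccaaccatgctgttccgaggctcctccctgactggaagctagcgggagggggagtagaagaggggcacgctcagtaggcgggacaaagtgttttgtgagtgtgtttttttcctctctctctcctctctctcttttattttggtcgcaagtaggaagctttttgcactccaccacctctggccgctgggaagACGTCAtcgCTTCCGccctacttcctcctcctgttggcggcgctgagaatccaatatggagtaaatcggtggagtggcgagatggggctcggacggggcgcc
Dusp5 held a pair of CArG boxes directly beside each other, at -82 to -73 and -72 to -63 from the start site, and a cyclic AMP response element core at -56 to -51. A CArG box occurred in 1.63% of all 32851 promoter windows of the same length and a cyclic AMP response element core in 7.51%. An ETS core occurred once in Dusp6 (-62 to -57) and Spred2 (-43 to -38) and at 2 places in Spred1 (-17 to -12 and 8 to 13), against 16.9% of all windows with at least 1. Spred2 also held a cyclic AMP response element core, at -52 to -47. The windows of Spry1, Spry2 and Dusp10 held none of the searched letters, and AP-1 letters, found in 7.81% of all windows, occurred in no member. A match is a description of the sequence, not evidence of binding.

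Levels are FPKM, fragments per transcript length and library size, scaled between libraries, so that they can also be set side by side between genes. Library depth was estimated at 11.7 to 15.4 M fragments. Unnamed assembled loci numbered 12338 to 25171 in WT TFH libraries and 6803 to 10233 in the other 9. The Ets1 transcript did not check the KO label: its level in non-TFH libraries was 407 ± 5.12 FPKM (WT) and 400 ± 18 (KO-labelled), and in TFH libraries 196 ± 22.9 and 253 ± 26.1 (SD, n = 3 per group). A floxed deletion can leave most of a transcript in place, so genotypes are given as labelled throughout. The sort was visible in Pdcd1, which encodes PD-1, at 316 to 705 FPKM in TFH and 1.39 to 1.64 in non-TFH libraries, and Cd3e and Cd4 were at 167 FPKM or more in every library. Markers of other cells were present too: 15 macrophage and monocyte genes summed to 1598 to 2454 FPKM in WT TFH and 734 to 1104 in KO-labelled TFH libraries, against 41.7 to 87.4 and 129 to 168 in WT and KO-labelled non-TFH libraries. Lyz2, part of these sums, had a value in only 2 WT TFH libraries. It was at 283 ± 7.84 FPKM there and at 608 ± 143 in the KO-labelled TFH libraries. In such bulk samples fewer cells of a type and less RNA per cell cannot be told apart.

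The members had distinct patterns over the 4 groups. Dusp6 and Spry1 were highest in TFH cells, Dusp5 and Spred2 in non-TFH cells, Dusp4 in both KO-labelled groups, and Dusp10 and Spred1 in KO-labelled non-TFH cells. Spry2 reached at most 0.381 FPKM and was listed at 0 in 3 of them, so it was under the minimum of 1 FPKM in 3 libraries and was not tested. The other 7 passed that minimum, Dusp4 in 9 libraries with none of the WT non-TFH libraries among them.

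**Figure D1:**
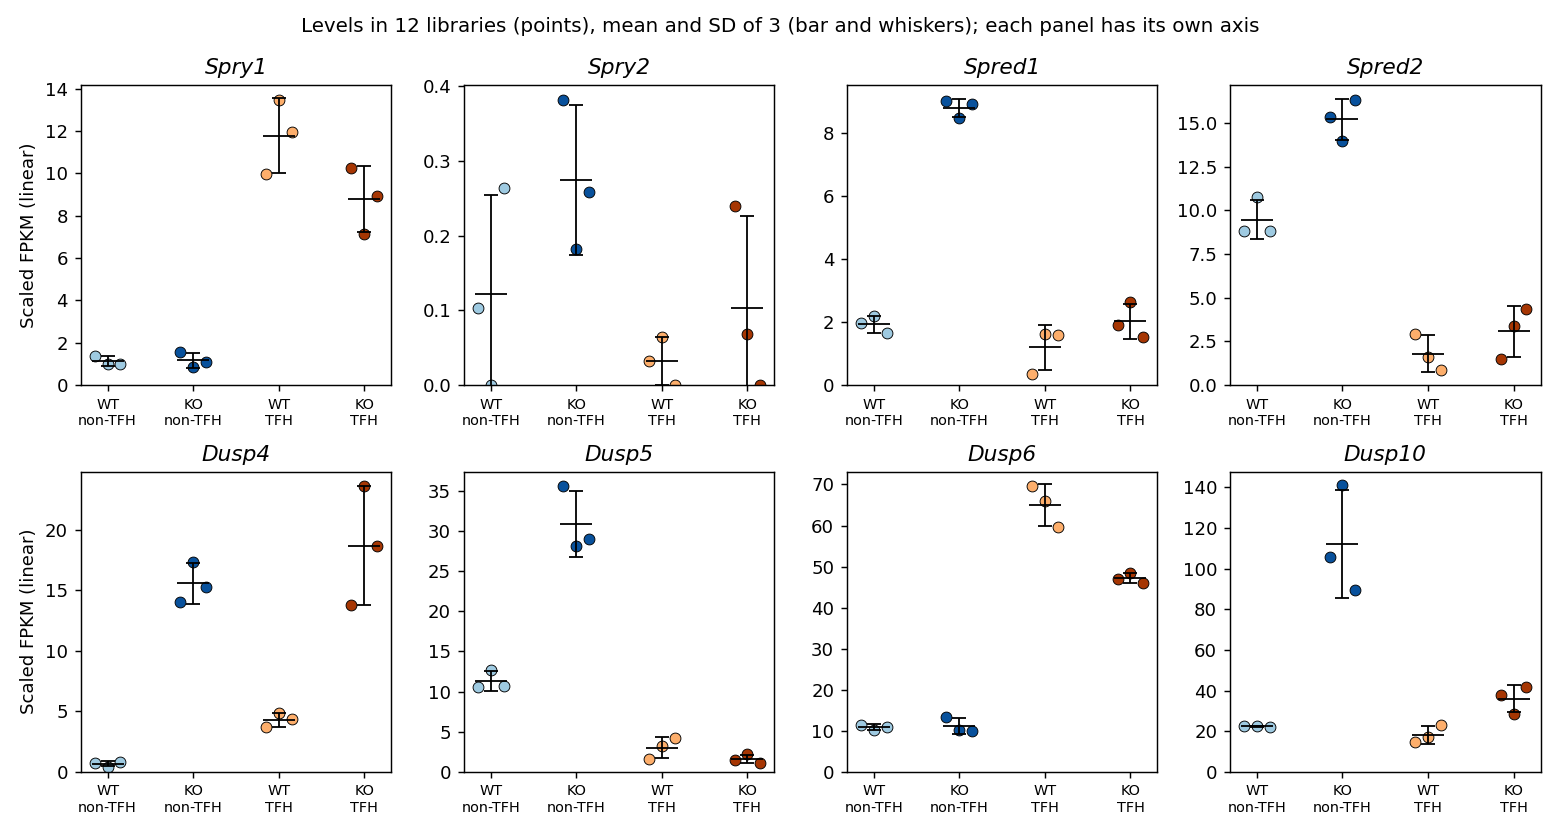
Scaled FPKM (linear axes, 1 per gene) of the 8 genes in 12 libraries, with points for libraries and bars and whiskers for the mean and SD of 3. Dusp10 lies at 89.5 to 141 in KO-labelled non-TFH cells and at 14.5 to 41.7 in the other 9 libraries, whereas Dusp6 lies at 46 to 69.6 in TFH and 9.97 to 13.3 in non-TFH libraries.

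In non-TFH cells, brakes of several kinds were higher in the libraries labelled KO: Dusp4, Dusp10, Spred1 and Dusp5 rose, and no member fell. By limma, 4 of the 7 tested members were called (adjusted p under 0.05). Of all 11128 tested features, 11.7% were called higher and 8.56% lower, 20.3% together. The libraries did not overlap for 5 of the 8 members, against 51.6% of features. The median log2 change over the 7 was 1.37, and over all features 0.03.

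Dusp10, the phosphatase of p38 and JNK, was the most abundant member in these cells. It read 22.7, 22.4 and 22.2 FPKM in the WT libraries, against 106, 141 and 89.5 with the KO label. The WT libraries were nearly identical, and the lowest KO-labelled library was far above them. The means of 22.4 ± 0.246 and 112 ± 26.5 (SD, n = 3 per group) differed 5-fold, a log2 change of 2.25 ± 0.2 (SE) with a limma adjusted p of 8.5e-06.

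Dusp4, the nuclear phosphatase of several MAP kinases, went from near the floor of these tables to a moderate level. Its WT non-TFH values were 0.755, 0.411 and 0.847 FPKM, and its KO-labelled values 14, 17.3 and 15.3. Before scaling, the confidence bounds that Cufflinks deposited for it ran from 0.164 to 0.983 over the WT libraries and from 11.9 to 17.3 over the KO-labelled ones. The groups lay far apart also within that error. The ratio of means was 23.2, and the log2 change of (FPKM + 1) was 3.31 ± 0.2 (adjusted p = 3.9e-07), a scale on which the change of a low gene is understated.

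Dusp5, the nuclear phosphatase specific for ERK, read 10.5, 12.7 and 10.7 FPKM in the WT libraries, against 35.7, 28.1 and 29 with the KO label. All KO-labelled libraries were above all WT libraries. It rose by 1.37 ± 0.25 log2 (adjusted p = 0.0019), a 2.73-fold ratio of means. This is the member whose promoter carries the adjoining CArG boxes printed above, and their part in its change was not tested.

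Spred1, the adaptor that recruits neurofibromin, measured 1.96, 2.19 and 1.65 FPKM in the WT libraries, against 9.04, 8.49 and 8.92 with the KO label. The replicates of each group lay close together. The rise of 1.75 ± 0.25 log2 (adjusted p = 0.00036) was a 4.56-fold ratio of means. Its relative Spred2 measured 8.83, 10.7 and 8.82 FPKM in the WT libraries, against 15.3, 14 and 16.3 with the KO label. These libraries did not overlap either, but the change of 0.63 ± 0.3 log2 did not pass in the fit to all 12 libraries (adjusted p = 0.18). With the non-TFH libraries alone the same change passed (adjusted p = 0.0052).

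The other ERK-directed brakes did not pass. Spry1 read 1.39, 1 and 1.01 FPKM in the WT libraries, against 1.54, 0.858 and 1.08 with the KO label (log2 change 0.01 ± 0.19, adjusted p = 0.99). The first of those KO-labelled values had deposited bounds of 0 to 3.41 before scaling and is poorly estimated. Dusp6 read 11.5, 10.1 and 10.9 FPKM in the WT libraries, against 13.3, 10.2 and 9.97 with the KO label (0.03 ± 0.12, adjusted p = 0.91). The groups overlapped for both genes.

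Markers of other cells differed between the same libraries, where 11.7% of all features were called higher and 8.56% lower. Of 15 macrophage and monocyte genes 6 were higher and none lower in KO-labelled non-TFH cells (Csf1r, the receptor of their growth factor, 1.70 to 3.77 FPKM in WT and 4.92 to 6.91). Of 5 tested regulatory T cell genes 3 were higher and none lower, with summed levels of 59.4 to 77.2 FPKM in WT and 112 to 152 in KO-labelled libraries. Foxp3 had no feature of its own and is not among the 5. Of 7 CD8 and NK genes 3 were higher and 2 lower, with sums of 47.9 to 52.1 and 155 to 183 FPKM. Cd8b1 (11.7 ± 2.5 to 101 ± 5.39 FPKM, SD, n = 3 each), Gzmb (0.427 ± 0.137 to 49.8 ± 6.25) and Eomes (1.06 ± 0.167 to 14.8 ± 2.35) rose. Klrd1 (24.6 ± 1.89 to 2.08 ± 0.775) and Prf1 (11.8 ± 0.362 to 1.21 ± 0.367) fell. Cd8a did not pass (0.0867 ± 0.0729 to 0.258 ± 0.0698). Of 6 tested neutrophil genes 2 were higher, with sums of 17.5 to 145 and 46.1 to 63.1 FPKM. B cell genes summed to at most 4.17 FPKM in any non-TFH library, with Fcrla at 0 in all WT and Pax5 at 0 in all KO-labelled libraries, and 0 of 8 were called. Whether such cells were present in these libraries, and their part in the members' changes, was not tested.

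In TFH cells, Dusp4 and Dusp10 again rose in the libraries labelled KO, while Dusp6 fell. That is 3 of the 7 tested members, where limma called 30.7% of all features (15.7% higher and 15% lower). The libraries did not overlap for 3 of 8 members, against 37.5% of features, so that this count is not particular to these genes. The median log2 change was 0.51 over the 7 and 0.04 over all features.

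Dusp4 read 3.73, 4.88 and 4.32 FPKM in the WT libraries, against 13.8, 23.6 and 18.6 with the KO label. The KO-labelled libraries varied more but were all above the WT ones. It rose by 1.86 ± 0.2 log2 (SE, n = 3 libraries per group, limma adjusted p = 3.6e-05), a 4.33-fold ratio of means. Dusp10 read 14.5, 17.4 and 23.1 FPKM in the WT libraries, against 37.8, 28.6 and 41.7 with the KO label. It rose by 0.95 ± 0.2 log2 (adjusted p = 0.0037), a 1.97-fold ratio.

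Dusp6, the cytoplasmic ERK phosphatase and the most abundant member in TFH cells, read 69.6, 65.9 and 59.6 FPKM in the WT libraries, against 47, 48.4 and 46 with the KO label. The groups did not overlap. It fell by 0.45 log2 (SE 0.12, adjusted p = 0.014), and the call was lost with array weights (adjusted p = 0.11) and with the library's count of unnamed loci as a covariate, an alternative chosen after the data were seen (adjusted p = 0.055). Spry1, which shares its pattern over the groups, read 9.95, 13.5 and 11.9 FPKM in the WT libraries, against 10.2, 7.15 and 8.95 with the KO label, which overlapped (-0.39 ± 0.19, adjusted p = 0.14).

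The remaining members were low in TFH cells and did not pass. Dusp5 read 1.57, 3.25 and 4.16 FPKM in the WT libraries, against 1.53, 2.17 and 1.09 with the KO label (-0.58 ± 0.25, adjusted p = 0.095). Without WT TFH replicate 1 its change was -0.87 and passed (adjusted p = 0.0079), without WT TFH replicate 3 it was -0.37 (adjusted p = 0.28), and with the unnamed loci as a covariate -0.14 (adjusted p = 0.87). Spred1 read 0.36, 1.63 and 1.59 FPKM in the WT libraries, against 1.92, 2.63 and 1.52 with the KO label (0.51 ± 0.25, adjusted p = 0.15). It was 0.20 without WT TFH replicate 1 (adjusted p = 0.45) and passed with quantile normalization (0.71, adjusted p = 0.048).

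Spred2 read 2.93, 1.6 and 0.863 FPKM in the WT libraries, against 1.47, 3.36 and 4.36 with the KO label (0.53 ± 0.3, adjusted p = 0.21). The second WT value had deposited bounds of 0 to 6.46 before scaling. Without KO-labelled TFH replicate 1 the change was 0.85 and passed (adjusted p = 0.036), without WT TFH replicate 3 it was 0.27 (adjusted p = 0.54), and with the unnamed loci as a covariate its sign turned (-0.22).

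Markers of other cells differed in this comparison too, where 15.7% of all features were called higher and 15% lower. Of the 15 macrophage and monocyte genes 13 were lower and 2 higher in KO-labelled TFH cells, with Csf1r at 133 to 187 FPKM in WT and 17 to 20.9 in KO-labelled libraries. The 2 higher genes were Itgam, from 1.35 ± 0.5 to 27.6 ± 2.91 FPKM (SD, n = 3 each), and Lyz2, whose levels are given above. Of 8 tested B cell genes 4 were lower and none higher (sums of 84.5 to 87.1 and 43.5 to 46.8 FPKM), of 6 dendritic cell genes 3 were lower (27.6 to 49.7 and 7.09 to 19.5), and of 5 regulatory T cell genes 3 were lower (429 to 532 and 248 to 287). Of 7 CD8 and NK genes 4 were higher and 1 lower (26.3 to 28.8 and 54.1 to 69.4). Among them Cd8b1 rose from 8.41 ± 2.13 to 39.8 ± 5.33 FPKM and Cd8a from 1.62 ± 0.328 to 3.22 ± 0.773 (SD, n = 3 each). Klrd1 fell from 8.11 ± 2.03 to 2.22 ± 0.838. No macrophage, B cell, dendritic cell or regulatory T cell gene of the lists was at 0 throughout a TFH group. Whether such cells were present, and their part in the changes of Dusp6, Dusp4 and Dusp10, was not tested.

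**Figure D2:**
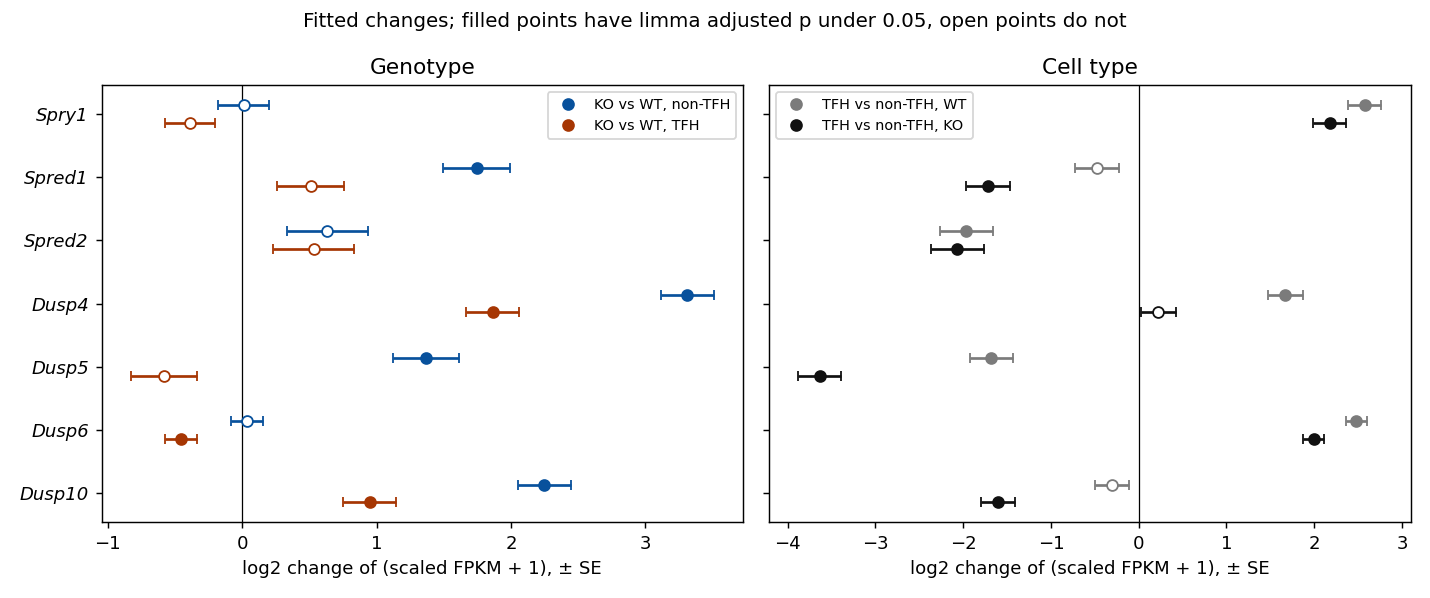
Fitted log2 changes of (scaled FPKM + 1) with their SE for the 7 tested genes, by genotype (left) and by cell type (right). Filled points passed an adjusted p of 0.05 in limma and open points did not. On the left, Dusp4 (3.31 and 1.86) and Dusp10 (2.25 and 0.95) are filled in both cell types, and Dusp5 points to opposite sides (1.37 and -0.58).

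The KO against WT change itself was compared between the cell types. It was smaller in TFH than in non-TFH cells for 4 of the 7 tested members and larger for none, where 17.5% of all features were called and 10.6% in that direction. This comparison uses the same libraries as those above. The difference was -1.95 ± 0.35 log2 for Dusp5 (SE, limma adjusted p = 0.0024), whose change had opposite signs in the 2 cell types, -1.45 ± 0.28 for Dusp4 (adjusted p = 0.0038) and -1.30 ± 0.28 for Dusp10 (adjusted p = 0.0076). For Dusp10 it did not pass with the unnamed loci as a covariate (adjusted p = 0.067). For Spred1 it was -1.24 ± 0.35 (adjusted p = 0.032), and this call was lost in 14 of 22 alternatives, among them a pseudocount of 0.1 (adjusted p = 0.24), quantile normalization (adjusted p = 0.14) and leaving out any 1 of the 6 non-TFH libraries, WT TFH replicate 2 or 3, or KO-labelled TFH replicate 1 or 3, with adjusted p from 0.0017 to 0.24 over the 22. Dusp6 (-0.49 ± 0.17, adjusted p = 0.072), Spry1 (-0.40 ± 0.27, adjusted p = 0.36) and Spred2 (-0.10 ± 0.43, adjusted p = 0.91) did not pass. Dusp6 passed without scaling (-0.55, adjusted p = 0.047).

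Between cell types some members were higher in TFH cells and others lower, in WT as in KO-labelled mice. In WT mice Dusp6, Spry1 and Dusp4 were higher in TFH cells and Dusp5 and Spred2 lower. These are 5 of 7 tested members, where limma called 67.5% of all features (35.4% higher and 32.2% lower), and the libraries did not overlap for 6 of 8, against 71.6% of features. Both counts are near the shares over all features and so are not particular to these genes. Without scaling between libraries the median gene differed by 0.37 log2 in WT and 0.27 in KO-labelled mice, and changes are relative to that median.

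Dusp6 was 6.01-fold and Spry1 10.4-fold higher in WT TFH than in WT non-TFH cells (ratios of the means of 3 libraries, from 10.8 ± 0.704 to 65 ± 5.07 and from 1.13 ± 0.221 to 11.8 ± 1.76 FPKM, SD). Their log2 changes were 2.48 ± 0.12 and 2.58 ± 0.19 (SE, limma adjusted p = 8.8e-09 and 2.3e-07). In KO-labelled mice they were 4.22-fold (1.99 ± 0.12) and 7.57-fold (2.18 ± 0.19) higher. No TFH library overlapped a non-TFH library for either gene. Dusp4 was 6.43-fold higher in WT TFH cells (1.67 ± 0.2, adjusted p = 1.3e-05), but in KO-labelled mice the TFH mean of 18.7 ± 4.91 and the non-TFH mean of 15.6 ± 1.67 FPKM overlapped (0.22 ± 0.2, adjusted p = 0.33). That last change was 0.51 and passed without scaling (adjusted p = 0.039).

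Dusp5 and Spred2 went the other way. Dusp5 fell from 11.3 ± 1.22 FPKM in non-TFH to 3 ± 1.32 in TFH cells of WT mice (-1.68 ± 0.25, adjusted p = 7.8e-05). In KO-labelled mice it was 19.4-fold lower in TFH cells, at 30.9 ± 4.14 and 1.6 ± 0.544 FPKM (-3.63 ± 0.25, adjusted p = 1.3e-07). Spred2 was 5.26-fold lower in TFH cells of WT mice (-1.96 ± 0.3) and 4.97-fold lower in KO-labelled mice (-2.07 ± 0.3). Its WT call was lost with the unnamed loci as a covariate (-1.09, adjusted p = 0.084).

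Dusp10 and Spred1 were called between the cell types in KO-labelled mice, where 6 of 7 tested members were called, against 67.1% of all features. The libraries did not overlap for 6 of 8 members, against 73.4% of features, a count near that share and so not particular to these genes. Dusp10 was 3.11-fold lower in TFH cells of KO-labelled mice (-1.60 ± 0.2, adjusted p = 2e-05) and Spred1 4.35-fold lower (-1.71 ± 0.25, adjusted p = 7.5e-05). In WT mice Dusp10 (-0.30 ± 0.2, adjusted p = 0.2) and Spred1 (-0.48 ± 0.25, adjusted p = 0.11) did not pass. The WT libraries did not overlap for Spred1 either, at 0.36 to 1.63 FPKM in TFH and 1.65 to 2.19 in non-TFH cells. The sign of Dusp10 turned without scaling (0.0514), and Spred1 passed with quantile normalization (-0.75, adjusted p = 0.017). Without WT TFH replicate 1 the changes were -0.15 for Dusp10 and -0.16 for Spred1, and without WT TFH replicate 3 that of Dusp10 was -0.47 (adjusted p = 0.056), none of them called. Markers of other cells moved with all these cell type differences. In WT mice 14 of 15 macrophage, 8 of 8 B cell, 6 of 6 dendritic cell and 3 of 5 regulatory T cell genes were higher in TFH cells. The macrophage gene Itgam was lower there (-0.60 ± 0.17), where 35.4% of all features were called higher and 32.2% lower. In KO-labelled mice 11, 8, 2 and 3 of the same genes were higher, against 33.5% of all features. The regulatory T cell gene Il2ra was lower there (-1.18 ± 0.24), against 33.6% of all features. Of 6 neutrophil genes 4 were lower in TFH cells of either genotype, and of 7 CD8 and NK genes 3 were higher and 3 lower in WT and 1 higher and 3 lower in KO-labelled mice. Whether such cells were present, and their part in these differences, was not tested.

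Ordered by level, Dusp6 ran from WT TFH through KO-labelled TFH to both non-TFH groups, which overlapped. Spry1 had the same order of cell types, with overlap between genotypes in each. Dusp10 ran from KO-labelled non-TFH (112 FPKM) through KO-labelled TFH (36.1) to WT non-TFH (22.4) and WT TFH (18.3), and those WT groups overlapped. Spred1 ran from KO-labelled non-TFH (8.81) to KO-labelled TFH (2.03) and WT non-TFH (1.93), which overlapped, and WT TFH (1.19). Dusp5 and Spred2 both ran from KO-labelled to WT non-TFH, with no overlap, and then to the TFH groups, which overlapped each other. For Dusp4 both KO-labelled groups overlapped at the top, above WT TFH and then WT non-TFH. For Spry2 each group overlapped its neighbour.

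Together the 8 transcripts were most abundant per length in KO-labelled non-TFH cells. Their scaled FPKM summed to 56.4 to 59.5 in WT and 170 to 221 in KO-labelled non-TFH libraries, and to 103 to 108 and 114 to 122 in TFH libraries. The make-up of that sum differed more than its size in TFH cells. Dusp6 made up 56.4 to 67.8% of it in WT and 37.6 to 41.7% in KO-labelled TFH libraries, while Dusp4 made up 3.64 to 4.52% and 12.1 to 20.4%. In non-TFH cells Dusp10 made up 37.6 to 39.3% in WT and 52.6 to 64.1% in KO-labelled libraries. These sums follow the abundant members and are given as a description, with no test.

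**Figure D3:**
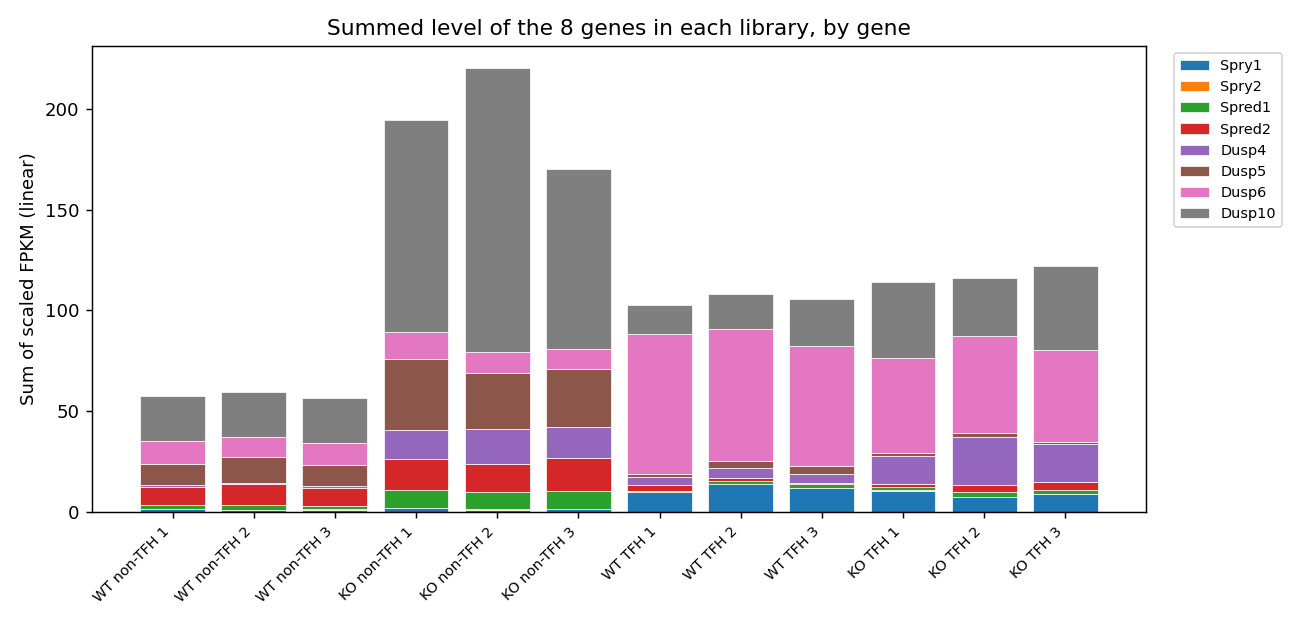
Sum of the scaled FPKM of the 8 genes in each of the 12 libraries (linear axis from 0), divided by gene. Dusp10 fills 52.6 to 64.1% of the bars of KO-labelled non-TFH cells, and Dusp6 56.4 to 67.8% of those of WT TFH cells.

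Over the 12 libraries, Dusp6 and Spry1 were the members most alike, with a Pearson r of 0.99 between their log2 values, followed by Spred1 and Dusp10 (0.92). Spry1 and Spred2 were the most opposed (-0.94). Such correlations follow differences between the 4 groups, a layout that all genes share, and are given as a description. Among 7412 named features with a mean of 5 FPKM or higher in any group, those most like Dusp6 were Slc29a1, a nucleoside transporter, Vamp8, a vesicle fusion protein, and Ppt1, a lysosomal thioesterase (r 0.99 each). For Spry1 they were Tmem206 and Ppt1, both listed at 0 in all non-TFH libraries, and Dusp6 itself. For Dusp5 they were Il18r1, a chain of the IL-18 receptor (r 0.99), Aim1 and Sipa1l2 (0.98 each). For Dusp10 they were Csrp1 (0.99), Chst10 (0.98) and Drc1 (0.97), for Dusp4 Trpm1 (0.98), the galectin Lgals1 (0.97) and Plp2 (0.97), for Spred1 Fam124b, Gpd1l and Qpct (0.96 each) and for Spred2 Drap1 and Mprip (0.98 each) and Mier1 (0.97).

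Other members of the same families moved both ways. Of 13 further Sprouty, Spred and Dusp genes 8 were tested. In KO-labelled non-TFH cells 1 rose, 2 fell and 5 did not pass, where 20.3% of all features were called. Spry4, at 0.0255 ± 0.0093 FPKM in WT, rose to 1.59 ± 0.08 (SD, n = 3 each), and it entered the test only through these KO-labelled libraries, the only ones at 1 FPKM or above. Dusp7, another cytoplasmic ERK phosphatase, fell from 18 ± 0.835 to 3.39 ± 0.284. Dusp2, a nuclear phosphatase of activated lymphocytes, fell from 83.9 ± 8.67 to 47.2 ± 15.8. In KO-labelled TFH cells 2 rose and 3 fell, where 30.7% of all features were called. Dusp16, which acts on JNK and reached 1 FPKM only in 4 KO-labelled libraries, rose from 0.437 ± 0.216 to 3.08 ± 1.22 FPKM and Dusp19 from 8.99 ± 2.26 to 18 ± 8, while Dusp7 (2.47 ± 0.646 to 0.436 ± 0.284), Dusp2 (21.6 ± 0.345, n = 2, to 9.04 ± 2.8) and Dusp22 (3.38 ± 0.324 to 0.915 ± 0.215) fell.

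Of 19 tested transcripts known to follow ERK activity, 9 rose and none fell in KO-labelled non-TFH cells, with a median log2 change of 1.13, where limma called 11.7% of all features higher and 8.56% lower. The 9 include Etv4 (0.0111 ± 0.0192 to 0.884 ± 0.451 FPKM), which entered the test only through 4 KO-labelled libraries. Ier3, an early response gene, rose from 0.248 ± 0.15 to 6.54 ± 0.74 FPKM (log2 change 2.60 ± 0.23) and Nr4a1, an orphan nuclear receptor induced by the T cell receptor, from 19.5 ± 0.944 to 130 ± 84.2 (2.51 ± 0.32). Nab2, a corepressor of Egr factors and also called (4.44 ± 1.36, adjusted p = 0.048), was listed at 0 in 2 WT libraries and at 19.9 FPKM in the third, against 55.5 to 64.7 in KO-labelled libraries. KO-labelled non-TFH replicate 1 stood apart in early response genes, with Fos at 774 FPKM against 231 and 131, Fosb at 73.6 against 2.89 and 4.67, Junb at 738 against 288 and 189 and Nr4a1 at 228 against 79.4 and 84.4 in the other two. Without it 8 of the 19 rose and none fell, against 8.8% and 6.53% of all features, and the median was 0.70. Dusp4, Dusp5, Dusp10 and Spred1 were called without it as well. Of 4 tested stress and dissociation genes 3 rose in the same libraries: Nr4a2 from 0.186 ± 0.021 to 5.76 ± 3.79 FPKM, the chaperone partner Dnajb1 from 30.3 ± 6.5 to 63.1 ± 5.25 and the chaperone Hsp90aa1 from 103 ± 21.4 to 185 ± 36.7. Without that library 2 of the 4 were called. The part of tissue handling in the members' changes was not tested.

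In KO-labelled TFH cells 4 of the same 19 transcripts rose and 5 fell, with a median of -0.33, where 15.7% of all features were called higher and 15% lower. Ier3 rose from 3.33 ± 1.12 to 26.1 ± 7.71 FPKM, and the ETS factors Etv4 (0.151 ± 0.136 to 1.75 ± 0.447) and Etv5 (6.00 ± 0.105, n = 2, to 15.3 ± 1.51) rose too. Etv4 entered the test only through 4 KO-labelled libraries. Fos (604 ± 81 to 133 ± 42.4), Junb (916 ± 92.3 to 250 ± 11.5), both subunits of AP-1, and the mRNA decay factor Zfp36 (366 ± 69.7 to 124 ± 7.48) fell. By the test of the difference, the KO against WT change was higher in TFH than in non-TFH cells for none of the 19. It was lower for 10, where 6.89% of all features were called in the first direction and 10.6% in the second. Of the stress and dissociation genes Atf3 fell in KO-labelled TFH cells, from 5.06 to 8.18 FPKM to 1.24 in 1 library and a listed 0 in the other two.

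**Figure D4:**
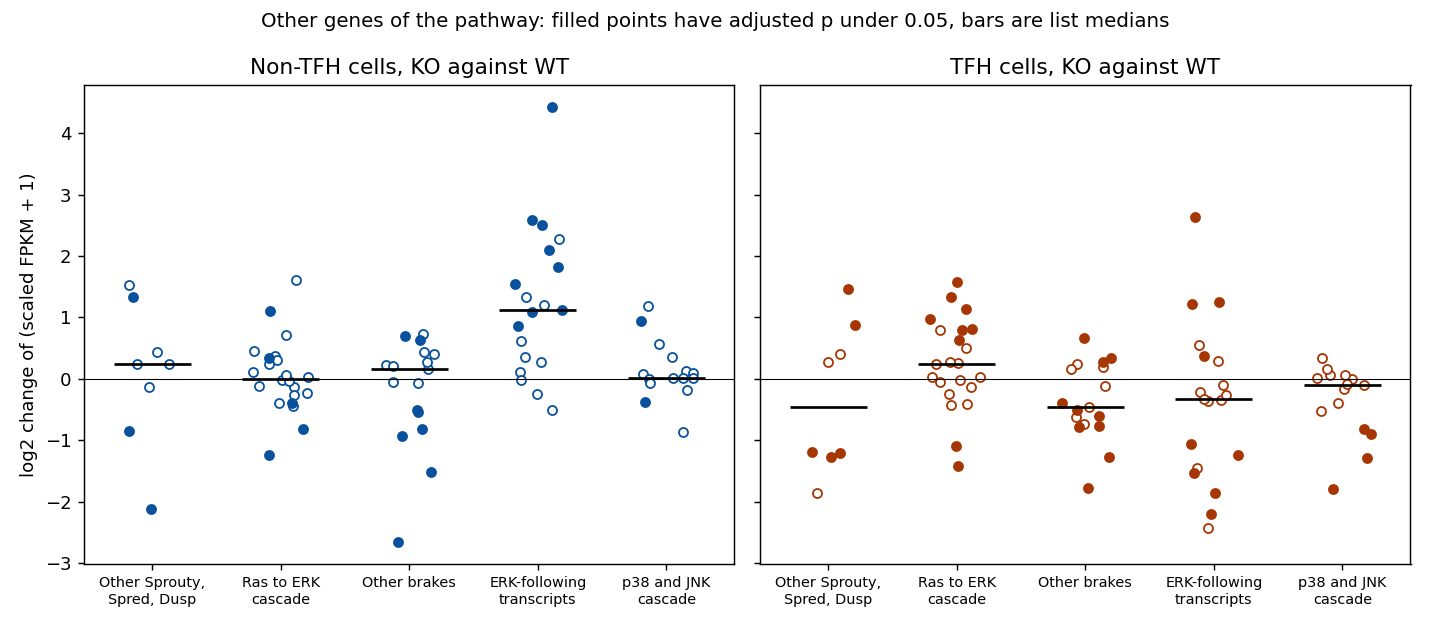
Log2 changes of (scaled FPKM + 1), KO-labelled against WT, of the tested genes of 5 pathway lists in non-TFH (left) and TFH cells (right). Filled points passed an adjusted p of 0.05 and bars are list medians. The transcripts that follow ERK have a median of 1.13 on the left and -0.33 on the right.

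Of 22 tested genes of the Ras to ERK cascade itself, 2 rose, 3 fell and 17 did not pass in KO-labelled non-TFH cells, where 11.7% of all features were called higher and 8.56% lower. Among those that rose was Rasgrp1, the Ras activator of T cells, from 113 ± 9.64 to 244 ± 25.7 FPKM (1.10 ± 0.11). The phospholipase Plcg1 fell from 105 ± 5.7 to 44.4 ± 9.15 FPKM, the Ras family activator Rasgrp2 from 209 ± 1.75 to 119 ± 15.6 and Nras from 30.3 ± 0.246 to 22.7 ± 1.49 (n = 2). In TFH cells 7 rose, 2 fell and 13 did not pass, where 15.7% of all features were called higher and 15% lower. Those that fell were Rasgrp2 (28.3 ± 5.03 to 10.5 ± 5.12 FPKM) and Plcg1 (26.8 ± 1.58 to 12.1 ± 0.953).

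Other brakes on Ras and receptor signalling moved both ways. In non-TFH cells 2 of 17 rose and 6 fell, against 11.7% and 8.56% of all features. The Ras inactivators Rasa3 (127 ± 0.654 to 205 ± 0.566 FPKM, n = 2 per group) and Rasa1 (42.8 ± 2.23 to 67.2 ± 6.53) rose, and the adaptor Lax1 (53 ± 11.7 to 7.68 ± 2.55), the Ras inactivator Rasal3 (276 ± 34 to 95.4 ± 4.08) and the ubiquitin ligase Cbl (56.2 ± 2.61 to 29.2 ± 2.34) fell. In TFH cells 3 rose and 7 fell, against 15.7% and 15%. The lipid kinase Dgkz (44.3 ± 3.78 to 73.8 ± 26), the Raf inhibitor Pebp1 (134 ± 15.9 to 169 ± 16) and Rasa2 (18.9 ± 1.18 to 23 ± 1.14) rose, and the adaptors Dok2 (82.3 ± 5.18 to 23.5 ± 4.67) and Lax1 (129 ± 12.7 to 53.3 ± 14, n = 2) and Cbl (12.8 ± 0.565 to 7.04 ± 0.702) fell.

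The p38 and JNK cascade, on which Dusp10 acts, had 1 gene higher and 1 lower of 15 tested in KO-labelled non-TFH cells, against 20.3% of all features called either way. The p38 gene Mapk11 rose from 21.2 ± 0.956 to 41.7 ± 1.61 FPKM (n = 2) and the p38 substrate kinase Mapkapk3 fell from 30.9 ± 1.39 to 23.6 ± 0.807. In TFH cells 4 of the 15 fell and none rose, against 15% and 15.7% of all features. Jun, the AP-1 subunit that JNK activates, fell from 84.5 ± 23.6 to 24.1 ± 9.35 FPKM, the kinase Map2k6, which activates p38, from 5.63 ± 1.29 to 1.70 ± 0.426 and the p38 gene Mapk12 from 3.32 ± 0.792 to 1.32 ± 0.359 (n = 2).

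For a single gene the exact two-sided permutation test over 3 against 3 libraries cannot go below a p of 0.1. It gave that value for every member and comparison named above as not overlapping.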

How the data were processed

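The authors deposited FPKM values, with their confidence bounds, in 1 Cufflinks gene tracking table per library, per the file headers. TruSeq stranded mRNA libraries were made, per the labels' protocols. The submitters' processing notes name Cufflinks, Cuffdiff, TopHat, TopHat2, Bowtie, Bowtie2, cutadapt, FastQC and the build mm10. Versions are not given in the sources. Symbols listed alone in 2 or more libraries per group were features (22502), and the remaining symbols that share entries were summed into 801 joint features. Values whose status was not OK were set to missing. The table of WT non-TFH replicate 1 ends within chromosome X, which holds no member. Depth was estimated from FPKM and its bounds at unnamed loci over 1500 bp and supports no counting interval.

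FPKM were scaled by the median ratio over the 7170 features that reached 1 FPKM in all libraries (factors 0.857 to 1.14). The 11128 features that reached 1 FPKM in 3 libraries were tested as log2(FPKM + 1) with limma 3.58.1 in R 4.3.3, fitting 4 group means over all 12 libraries with a trended, robust prior variance. Benjamini-Hochberg adjustment ran over all features. From each pathway list up to 3 called genes per direction and cell type are named, and some of these are not reported here. Members and lists were chosen with earlier results of these data known. Alternatives covered the pseudocount, filter, scaling, libraries fitted, weights, moderation, a replicate block, each library left out and, chosen after seeing the data, each library's count of unnamed loci as a covariate. Python 3.11.15 with numpy 2.4.6, pandas 2.3.3, scipy 1.17.1 and matplotlib 3.10.9 served for the other steps.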

Additional observations from a re-analysis of the deposited data

Results flagged for a closer look

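For 4 genes the size of the KO against WT change was not the same in both cell types, by a limma test of that difference itself. The difference (TFH minus non-TFH, log2) was -1.95 for Dusp5, -1.45 for Dusp4, -1.30 for Dusp10 and -1.24 for Spred1. For Dusp5 the changes had opposite signs, 1.37 in non-TFH and -0.58 in TFH cells, and the latter did not pass by itself. For Dusp4 and Dusp10 both changes were upward and the one in non-TFH cells was larger. For Spred1 the test of the difference was lost in 14 of 22 alternatives.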

How the results depend on the processing

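The number of members called in each comparison was recomputed under up to 23 settings. It ranged from 2 to 4 for KO against WT in TFH cells (3 in the reported fit), 4 to 5 in non-TFH cells (4), 4 to 6 for TFH against non-TFH in WT mice (5), 6 to 7 in KO-labelled mice (6) and 2 to 5 for the difference between cell types (4). Only the last moved by over 1.5 times, to 2 with each library's count of unnamed loci as a covariate. Leaving out 1 library at a time gave 3 to 4, 4, 5, 6 and 3 to 4. Over all features, 3418 were called for KO against WT in TFH cells, but 2167 with only the groups compared, 2230 with array weights and 1717 with the unnamed loci. In non-TFH cells 2259 were called, but 3903 with only the groups compared and 4167 with array weights.

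Of 784 refitted changes of single members 743 kept direction and side of the threshold, 18 lost the call, 8 gained it and 15 changed sign. None of the 15 was a called change. They were those of Spry1 in non-TFH cells (-0.20 with quantile normalization, -0.0148 with array weights, -0.0041 with the unnamed loci, -0.11 to 0.11 leaving out a library), Dusp6 in non-TFH cells (-0.0039 with the unnamed loci, -0.0908 to 0.10 leaving out a library), Spred2 in TFH cells (-0.22 with the unnamed loci), Spred2 in the difference between cell types (0.0796 with a pseudocount of 0.1, 0.0571 with quantile normalization, -0.36 to 0.22 leaving out a library) and Dusp10 between cell types of WT mice (0.0514 without scaling). Apart from leaving out libraries, the cause was not tested.

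Libraries with the same replicate number did not deviate together (18 pairs, correlation -0.03 to 0.06), so the numbers were not taken as pairs. Some of these pairs join WT with KO-labelled libraries, which cannot share a mouse. Whether TFH and non-TFH libraries of a genotype came from the same mice cannot be decided from these correlations. With the number as a replicate block the counts of members called stayed 3, 4, 5, 6 and 4. With genotype and number together as a replicate block they were 5, 6 and 3 for the last 3 comparisons. No member shared its entry with another gene, so leaving out shared entries was not run. Depth limits what can be said of genes under 1 FPKM, such as Spry2, and of Dusp4 in WT non-TFH cells.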

Other observations

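Between cell types the surrounding pathway differed too. In WT mice 3 of 22 Ras to ERK cascade genes were higher in TFH cells and 15 were lower, with a median log2 change of -1.13, where limma called 35.4% of all features higher and 32.2% lower. In KO-labelled mice 2 were higher and 12 lower (median -0.61), where 33.5% of all features were called higher and 33.6% lower. Of the 19 transcripts that follow ERK activity, 12 were higher and 4 lower in TFH cells of WT mice (median 1.29), and 6 were higher and 8 lower in KO-labelled mice (median -0.74). Of 15 p38 and JNK cascade genes 3 were higher and 8 lower in WT mice and 1 higher and 9 lower in KO-labelled mice. These lists were read only by their counts beside those of all features.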
